A study of Arabidopsis thaliana with 12 samples.

Results

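A set of 4 genes of mitochondrial stress and heat shock was followed in Arabidopsis thaliana seedlings, namely AT2G21640 (UPOX), NDB2, AT5G51440 (HSP23.5) and AT1G53540 (HSP17.6C). They were taken by locus, and each was read by 1 probe set, the group of short probes that reports 1 transcript on the Affymetrix array. They are 4 of 13356 genes that the array table names and that were tested here. The seedlings were of the Col-0 background and came in 4 groups of 3 arrays: light-grown amiR-SNF4, light-grown wild type (WT), dark-grown amiR-SNF4 and dark-grown WT. The amiR-SNF4 line carries an inducible artificial microRNA against SNF4, an activator subunit of SnRK1, a kinase that senses low energy. Both genotypes were kept at 22 °C on plates that held 0.5% sucrose and β-estradiol at 5 µM, which induces the microRNA, and whole seedlings were taken 5 days after germination. Light-grown seedlings had 8 h of light and 16 h of dark per day, their labels also gave 7 days after sowing, and the labels of all groups give sampling 4 h into the light period. Labels and series text differ on the light intensity. The series text adds that a dye stain for dead cells showed no visible death in the silenced seedlings.

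Uninduced amiR-SNF4 seedlings were not among the samples, and the labels do not say how many lines were used. What loss of SNF4 did and what the line or its transgene did otherwise cannot be told apart here. SNF4 itself was not analysed here, so the silencing could not be checked on these arrays. The labels call arrays of a group biological replicates but name no separate cultures, and the p-values below reflect spread among these samples, which may be technical. RNA came from whole seedlings, in which more cells of a type and more RNA per cell cannot be told apart. Of the markers for plant organs, 2 of 8 root, 3 of 10 green tissue and 2 of 8 seed genes were measured. The summed normalized intensity of the green tissue genes ran from 7180 to 8042 in light-grown amiR-SNF4 and from 9455 to 9797 in light-grown WT. In darkness it ran from 1897 to 3285 in amiR-SNF4 and from 5524 to 8282 in WT. The root genes summed to between 64.7 and 83.0 in light-grown amiR-SNF4, against between 90.9 and 142 in light-grown WT. In darkness the root sums were 21.7 to 25.5 in amiR-SNF4 and 52.9 to 78.7 in WT. The seed genes summed to 50.3 to 69.0 in light-grown amiR-SNF4 and 2.82 to 65.5 in light-grown WT, and in darkness to 2432 to 3109 in amiR-SNF4 and 2413 to 3422 in WT. Between genotypes, 1 of the 3 green genes was called lower in light and all 3 in darkness, and none of the 2 root genes in light and 1 in darkness. Of all tested genes, 9.95% were called lower in light and 16.5% in darkness. Of the seed genes 1 of 2 was called higher in light and none in darkness. The part of these markers in the results below was not tested.

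Plant mitochondria report damage to the nucleus through retrograde signalling, in which a blocked respiratory chain or oxidative stress switches on nuclear genes for mitochondrial proteins. UPOX, a mitochondrial protein named for its rise under oxidative stress, is a standard marker of that response. NDB2 is an alternative NADH dehydrogenase on the outer face of the inner membrane, which passes electrons into the chain without pumping protons. Small heat shock proteins hold unfolding proteins in a soluble state until larger chaperones refold them. HSP23.5 does so in mitochondria and HSP17.6C in the cytosol.

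All 4 genes were higher in amiR-SNF4 than in WT in both growth conditions, and in each the rise was larger in darkness than in light. For HSP23.5 and HSP17.6C this difference between conditions did not pass the threshold under some processing choices, given below. Levels are given first as normalized intensity, the brightness of the probe set after the arrays were brought to 1 common distribution. Fold changes are on the log2(intensity + 16) scale, where 4.00 is the floor, and they understate the change of dim genes. They come from a linear model over all 12 arrays (limma), and adjusted p-values follow Benjamini and Hochberg over all 13356 genes.

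UPOX (AT2G21640) showed the largest rise of the 4 in both conditions. In light its normalized intensities were 235, 393 and 377 in the amiR-SNF4 arrays, against 41.4, 52.6 and 29.7 in the WT arrays. In darkness they were 1315, 2517 and 2533 in amiR-SNF4, against 60.3, 48.2 and 48.1 in WT. The genotypes did not overlap in either condition, and the 2 brighter dark-grown amiR-SNF4 arrays lay close together above the other. On the log2 scale the means were 8.42 ± 0.39 in amiR-SNF4 and 5.82 ± 0.29 in WT in light, and 11 ± 0.54 in amiR-SNF4 and 6.09 ± 0.14 in WT in darkness (SD, n = 3 each). The log2 fold change was 2.60 ± 0.26 in light (SE, n = 3 arrays per group, 6.08-fold, adjusted p = 1.33e-05). In darkness it was 4.91 ± 0.26 (30.1-fold, adjusted p = 2.27e-08).

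NDB2 sits at the entry of electrons into the respiratory chain. Its normalized intensities in light were 204, 244 and 247 in amiR-SNF4, against 59.0, 61.1 and 57.3 in WT. In darkness they were 1004, 626 and 644 in amiR-SNF4, against 80.3, 73.3 and 98.8 in WT. Again the genotypes did not overlap. The dark-grown amiR-SNF4 array that was highest for NDB2 was the lowest of its group for UPOX and for both heat shock genes. The log2 fold change was 1.72 ± 0.18 in light (3.28-fold, adjusted p = 1.68e-05) and 2.92 ± 0.18 in darkness (7.59-fold, adjusted p = 6.61e-08).

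HSP23.5 (AT5G51440), the mitochondrial small heat shock protein, read 108, 109 and 134 in light-grown amiR-SNF4, against 44.9, 33.1 and 42.2 in light-grown WT. In darkness it read 314, 473 and 736 in amiR-SNF4, against 60.4, 50.9 and 38.4 in WT. The dark-grown amiR-SNF4 arrays spread most widely for this gene, with an SD of 0.59 on the log2 scale, yet all lay above WT. The log2 fold change was 1.25 ± 0.25 in light (2.37-fold, adjusted p = 0.00281) and 2.92 ± 0.25 in darkness (7.59-fold, adjusted p = 1.10e-06).

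HSP17.6C (AT1G53540) is the cytosolic one. It read 37.2, 42.4 and 40.8 in light-grown amiR-SNF4, against 14.2, 10.7 and 1.54 in light-grown WT. In darkness it read 334, 453 and 461 in amiR-SNF4, against 64, 54.5 and 29.8 in WT. The light-grown WT arrays lay near the floor, with a mean of 4.60 ± 0.41 on the log2 scale. The log2 fold change was 1.21 ± 0.23 in light (2.32-fold, adjusted p = 0.00251) and 2.75 ± 0.23 in darkness (6.72-fold, adjusted p = 1.27e-06). The size in light hung on the constant: it was 2.42 with 1 added in place of 16 and 0.52 with 64 added, and was called with each.

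**Figure D1:**
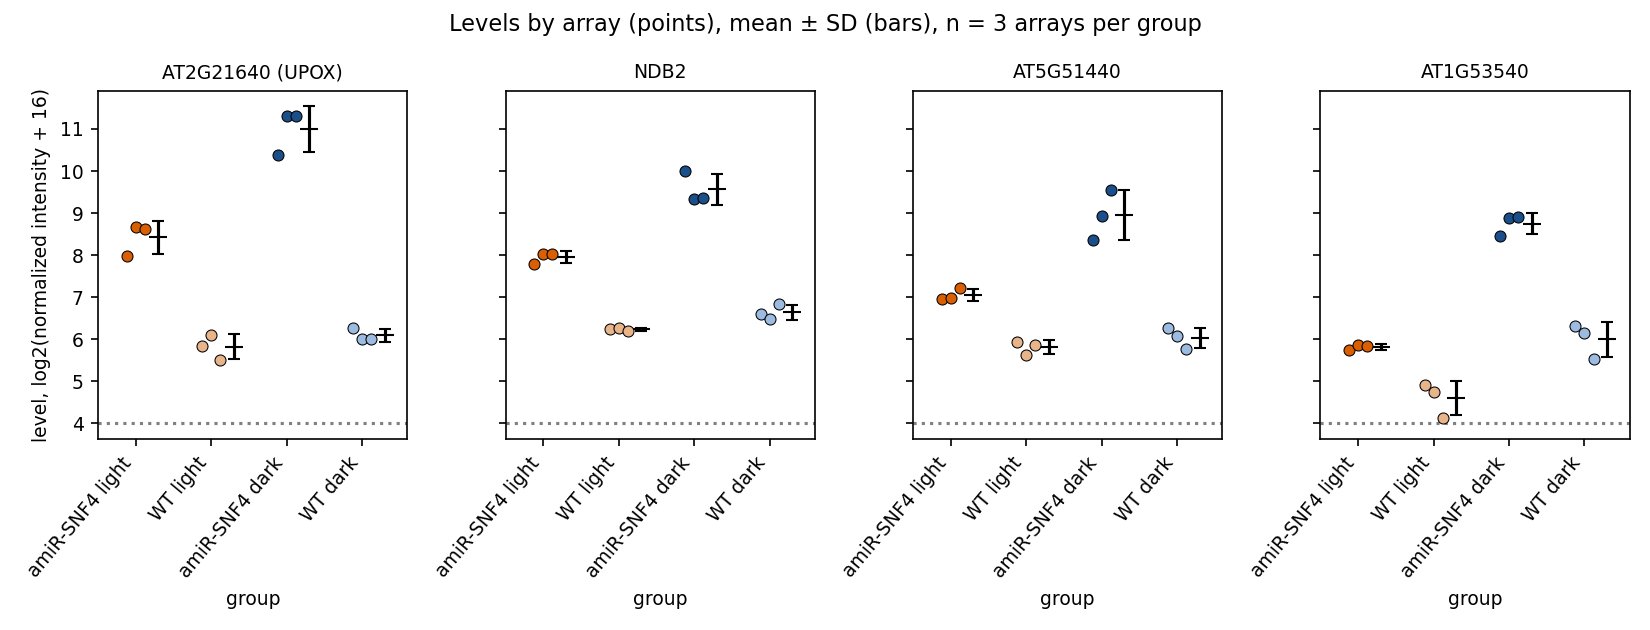
Level of each gene on the log2(normalized intensity + 16) scale (vertical axis) in the 3 arrays of each group (points, horizontal axis), with the group mean and SD beside them. The dotted line at 4 is the floor. Dark-grown amiR-SNF4 arrays lie above all other arrays for each of the 4 genes.

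All 4 members were therefore called higher in each condition. Among all tested genes, 9.14% were called higher in light and 14.3% in darkness. Arrays of amiR-SNF4 lay wholly above those of WT for 4 of 4 members in each condition, and for 17.6% of all genes in light and 17.2% in darkness. The members' median log2 fold change was 1.48 in light and 2.92 in darkness, beside -0.03 over all genes in each condition.

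The rise was smaller in light than in darkness for each gene, and this difference was itself tested as an interaction. The silencing effect in light minus that in darkness was -2.31 ± 0.37 for UPOX (95% interval -3.12 to -1.5, adjusted p = 0.00192). For NDB2 it was -1.21 ± 0.25 (interval -1.76 to -0.66, adjusted p = 0.00989). HSP23.5 gave -1.68 ± 0.35 (interval -2.43 to -0.93, adjusted p = 0.00932) and HSP17.6C -1.54 ± 0.33 (interval -2.25 to -0.82, adjusted p = 0.0120). All 4 were called lower in this comparison, where 3.92% of all genes were called lower and 4.07% higher. The members were proposed with such results known, so their number is a description. In normalized intensity, the mean of amiR-SNF4 exceeded that of WT by 294 in light and by 2070 in darkness for UPOX, and by 172 and 674 for NDB2. For HSP23.5 these gaps were 77.0 in light and 458 in darkness, and for HSP17.6C 31.3 and 367. The call of HSP17.6C was lost with 1 added in place of 16 (-0.68, adjusted p = 0.729). Without normalization between arrays the calls of HSP17.6C (-1.46, adjusted p = 0.130) and HSP23.5 (-1.75, adjusted p = 0.0747) were lost, with 278 in place of 1066 genes called in all.

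**Figure D2:**
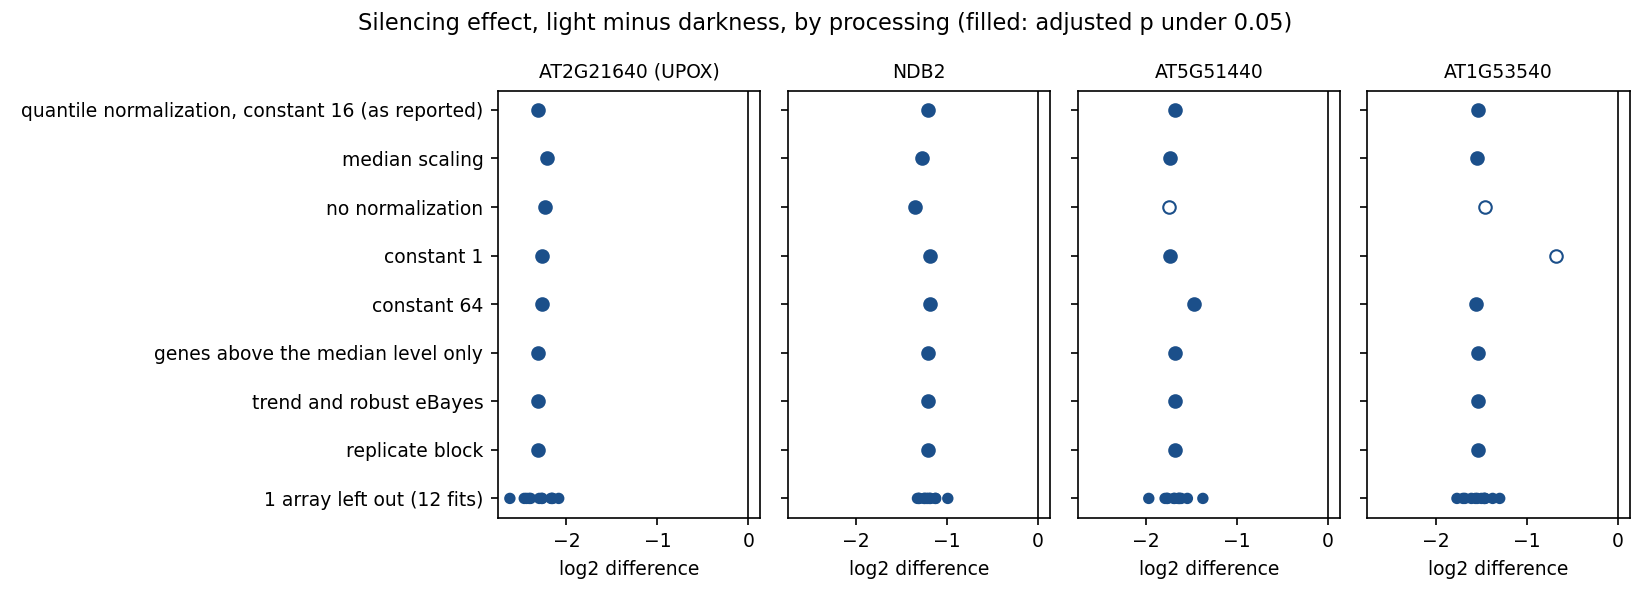
Difference of the silencing effect, light minus darkness (horizontal axis, log2 units), for each gene under each processing choice (rows). Filled points have an adjusted p under 0.05. All points lie below 0. HSP23.5 (AT5G51440) loses its call without normalization, and HSP17.6C (AT1G53540) without normalization and with a constant of 1.

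Light against darkness was then read within each genotype. In amiR-SNF4 all 4 genes were lower in light. UPOX was 5.97-fold lower in light (log2 fold change -2.58 ± 0.26), NDB2 3.06-fold (-1.62 ± 0.18) and HSP23.5 3.73-fold (-1.90 ± 0.25). HSP17.6C was 7.63-fold lower in light (-2.93 ± 0.23), and adjusted p-values of the 4 genes ran from 1.68e-06 to 7.19e-05. Of all genes, 15.9% were called lower and 17.7% higher in light in this genotype. Light-grown arrays lay wholly below dark-grown ones for 4 of 4 members and for 21.9% of all genes. In WT, HSP17.6C was again lower in light (-1.40 ± 0.23, 2.63-fold, adjusted p = 0.000477). It was the 1 member called lower in WT, where 16.4% of all genes were called lower and 18.4% higher. UPOX was at -0.27 ± 0.26 (adjusted p = 0.488), NDB2 at -0.41 ± 0.18 (adjusted p = 0.0992) and HSP23.5 at -0.22 ± 0.25 (adjusted p = 0.538). These 3 values turned to between 0.07 and 0.15 without normalization, so WT gave no settled direction for them. NDB2 and HSP17.6C had no overlap between light-grown and dark-grown WT arrays, as had 22.4% of all genes in the lower direction. The comparisons within a genotype share their arrays with those between genotypes and are not independent of them.

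**Figure D3:**
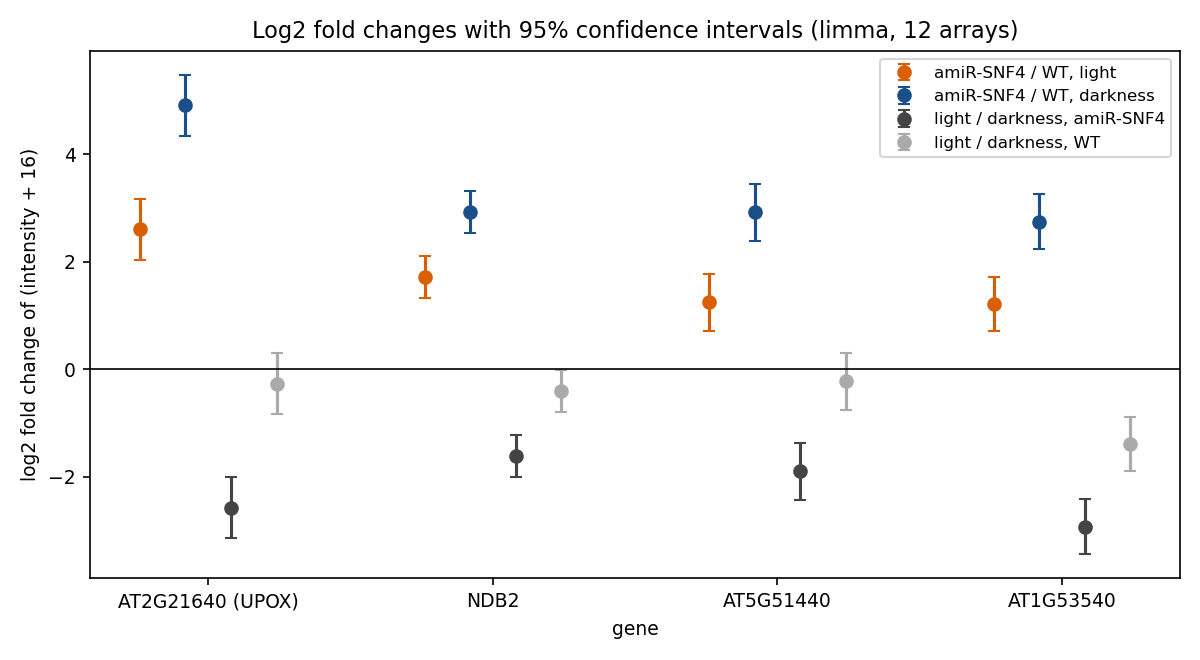
Log2 fold change of each gene with its 95% confidence interval (vertical axis) in the 4 pairwise comparisons. Silencing effects lie above 0 in light and in darkness, and in amiR-SNF4 the effect of light lies below 0 for each gene. In WT the intervals of UPOX and HSP23.5 (AT5G51440) cross 0.

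The order of the 4 groups was not the same for all genes. For UPOX, NDB2 and HSP23.5, dark-grown amiR-SNF4 was highest and light-grown amiR-SNF4 next, and both lay above both WT groups without overlap. At the lower end, the light-grown and dark-grown WT arrays overlapped for UPOX and HSP23.5. For HSP17.6C, light-grown amiR-SNF4 (37.2 to 42.4) lay within the range of dark-grown WT (29.8 to 64), and light-grown WT was lowest (1.54 to 14.2). HSP17.6C thus overlapped between silenced seedlings in light and WT in darkness, where the 3 mitochondrial genes did not, and this pair of groups was not tested.

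Other genes of mitochondrial retrograde signalling rose with them. Of 25 loci listed for this response, 11 were measured, 3 of them members. In light 10 of the 11 were higher and none lower (median log2 fold change 1.89), and in darkness all 11 were higher (median 2.92), beside medians of -0.03 over all genes. Without the members, 7 of 8 were higher in light (median 2.18) and all 8 in darkness (median 3.08), with none lower. The list was chosen with earlier results of these data known, so these counts are a description. Across all genes 9.95% were called lower in light and 16.5% in darkness. The largest rises were those of AT2G04050, with intensities of 760 to 866 in light-grown amiR-SNF4 against 12.3 to 18.7 in light-grown WT (25.2-fold, adjusted p = 2.94e-10). In darkness it ran from 890 to 1203 in amiR-SNF4 and from 11.3 to 15.1 in WT (36.9-fold, adjusted p = 1.10e-10). AT2G04070 rose 14.4-fold in light and 18.2-fold in darkness, and AT5G43450 5.51-fold in light and 9.93-fold in darkness. AT2G04050 and AT2G04070 have close locus numbers, and whether their probes read each other's transcript was not tested. GSTU25, a tau-class glutathione S-transferase, rose by 1.15 ± 0.20 in light and 3.30 ± 0.20 in darkness on the log2 scale.

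The difference of the silencing effect, light minus darkness, was below 0 for all 11 retrograde genes. It was called for 7 of them, 3 of those members. After UPOX, GSTU25 had the largest of the called ones, -2.15 ± 0.29 (adjusted p = 0.000647). The 4 that were not called were AT2G04050 (-0.55, 95% interval -1.0 to -0.10, adjusted p = 0.145), AT2G41380 (-0.46, interval -0.91 to -0.02, adjusted p = 0.218), AT2G04070 (-0.34, interval -1.04 to 0.35) and AT2G32020 (-0.12, interval -0.99 to 0.75). Whether these differences differ between the genes was not tested. Without normalization 3 of the 11 were called lower in this difference. Within amiR-SNF4, 8 of the 11 were lower and 1 higher in light than in darkness, and within WT 1 was lower and 2 were higher, beside the shares of all genes given above. Without normalization 5 were lower within amiR-SNF4 and none within WT, and the 1 higher within amiR-SNF4 was lost with 1 added in place of 16 and in a fit of the compared groups alone.

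None of the other measured alternative dehydrogenases rose in both conditions as NDB2 did. Of 15 loci of alternative respiration 5 were measured, among them NDB2. NDB1, another external dehydrogenase, was at -0.33 ± 0.24 in light (adjusted p = 0.417) and fell in darkness by 1.03 on the log2 scale (SE 0.24, adjusted p = 0.00459). NDB4 rose in light (1.03 ± 0.17, adjusted p = 0.000821) and was at 0.02 ± 0.17 in darkness (adjusted p = 0.953), with a called difference of 1.01 ± 0.24 (adjusted p = 0.0212). Its intensities were 17.1 to 33.4 in light-grown amiR-SNF4, 1.80 to 9.21 in light-grown WT, 1.00 to 2.64 in dark-grown amiR-SNF4 and 0.77 to 1.69 in dark-grown WT, low on this scale, and the call of the difference was lost without normalization and with 1 added in place of 16. NDB3 and NDC1 were not called between genotypes in either condition. The alternative oxidase genes that take electrons at the other end of this bypass were not analysed here.

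Some nuclear genes of the standard respiratory chain also rose, by smaller folds. Of 27 listed, 11 were measured. In light 3 were higher and none lower (median 0.33), and in darkness 6 were higher and none lower (median 0.82). Across all genes 9.14% were called higher in light and 14.3% in darkness, with medians of -0.03. This list too was chosen with earlier results known. SDH1-2, among those called in darkness, lay near the floor in dark-grown WT (1.04 to 2.72). SDH2-1 and SDH1-1, subunits of succinate dehydrogenase, rose by 0.71 ± 0.15 and 0.50 ± 0.16 in light and by 1.41 ± 0.15 and 1.16 ± 0.16 in darkness. CYTC-2, a gene for the electron carrier cytochrome c, rose by 0.91 ± 0.23 in light and 1.61 ± 0.23 in darkness. CYTC-1 was called in darkness (1.46 ± 0.20, adjusted p = 9.22e-05). The 3 calls in light were all lost without normalization between arrays. For the difference between conditions limma called none of the 11, with 3 at an unadjusted p under 0.05 (SDH2-1, CYTC-1 and SDH1-1), and the smallest adjusted p was 0.0595. With 64 added 1 was called lower, and 2 were when dim genes were left out. Of 15 loci for mitochondrial chaperones and proteases, NCLPP7, a subunit of a mitochondrial protease, was measured (0.25 ± 0.16 in light, adjusted p = 0.357, and 0.31 ± 0.16 in darkness, adjusted p = 0.178).

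Small heat shock protein genes were split. Of 19 listed, 10 were measured, 2 of them members. In light 4 were higher and 1 lower (median 0.35), and in darkness 7 were higher and 1 lower (median 0.85). The share of all genes called higher was 9.14% in light and 14.3% in darkness. Without the 2 members, 2 of 8 were higher and 1 lower in light (median 0.04, beside -0.03 over all genes). In darkness 5 of these 8 were higher and 1 lower (median 0.76). AT2G29500 rose 1.55-fold in light (adjusted p = 0.0277) and 7.16-fold in darkness (adjusted p = 1.03e-07). Its intensities were 57.9, 82.2 and 101 from lowest to highest in light-grown amiR-SNF4, and 44.7, 44.7 and 45.7 in light-grown WT. In darkness they were 459, 612 and 638 in amiR-SNF4, against 55.4, 63.6 and 77.4 in WT. AT1G52560 rose 6.85-fold in darkness (adjusted p = 4.72e-07), and in light its WT intensities lay between 0.43 and 0.89. AT4G21870 went the other way, 2.87-fold lower in light (adjusted p = 0.000931) and 2.29-fold lower in darkness (adjusted p = 0.00284, lost without normalization). Within amiR-SNF4, 7 of the 10 were lower and 1 was higher in light than in darkness, and within WT 4 were lower (2 without normalization) and 2 higher, against 16.4% and 18.4% of all genes. The difference of the silencing effect, light minus darkness, was called lower for 6 of the 10, or 4 of 8 without the members, and higher for none. Across all genes 3.92% were called lower in it. For AT1G52560, among those called, the sign also depends on the added constant, as given below. With 1 added in place of 16 it was called lower for 3 of the 10, and without normalization for 2. The 2 calls beside the members in light, AT2G29500 and AT1G52560, had adjusted p-values of 0.0277 and 0.0496, and 2 in place of 4 genes of the list were called higher without normalization or with 64 added.

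Larger chaperones and their partners rose as well. Of 16 listed genes of the HSP70, HSP90 and HSP100 systems 4 were measured. In light 2 were higher and none lower, and in darkness all 4 were higher (median 0.49 in light and 2.09 in darkness). Beside them, 9.14% of all genes were called higher in light and 14.3% in darkness. AT3G09440 read 606, 627 and 628 in light-grown amiR-SNF4, against 249, 290 and 334 in light-grown WT. In darkness it read 3568, 3641 and 4218 in amiR-SNF4, against 435, 526 and 530 in WT, a rise of 7.47-fold (adjusted p = 1.04e-08). Hsp70-2 rose 2.53-fold in light and 4.04-fold in darkness. Hop3, a co-chaperone that links HSP70 with HSP90, was at -0.09 in light and rose by 2.16 ± 0.15 in darkness, and AT5G48570 (FKBP65, a prolyl isomerase) rose by 1.27 ± 0.18 in darkness. The difference, light minus darkness, was -2.25 ± 0.22 for Hop3, -1.84 ± 0.20 for AT3G09440 and -1.43 ± 0.25 for AT5G48570, all called. All 4 were lower in light than in darkness within amiR-SNF4, and 3 of the 4 within WT, where all 3 calls were lost without normalization. For Hsp70-2 the difference of the silencing effect, light minus darkness, was -0.67 (interval -1.16 to -0.19, adjusted p = 0.0914) and was not called.

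**Figure D4:**
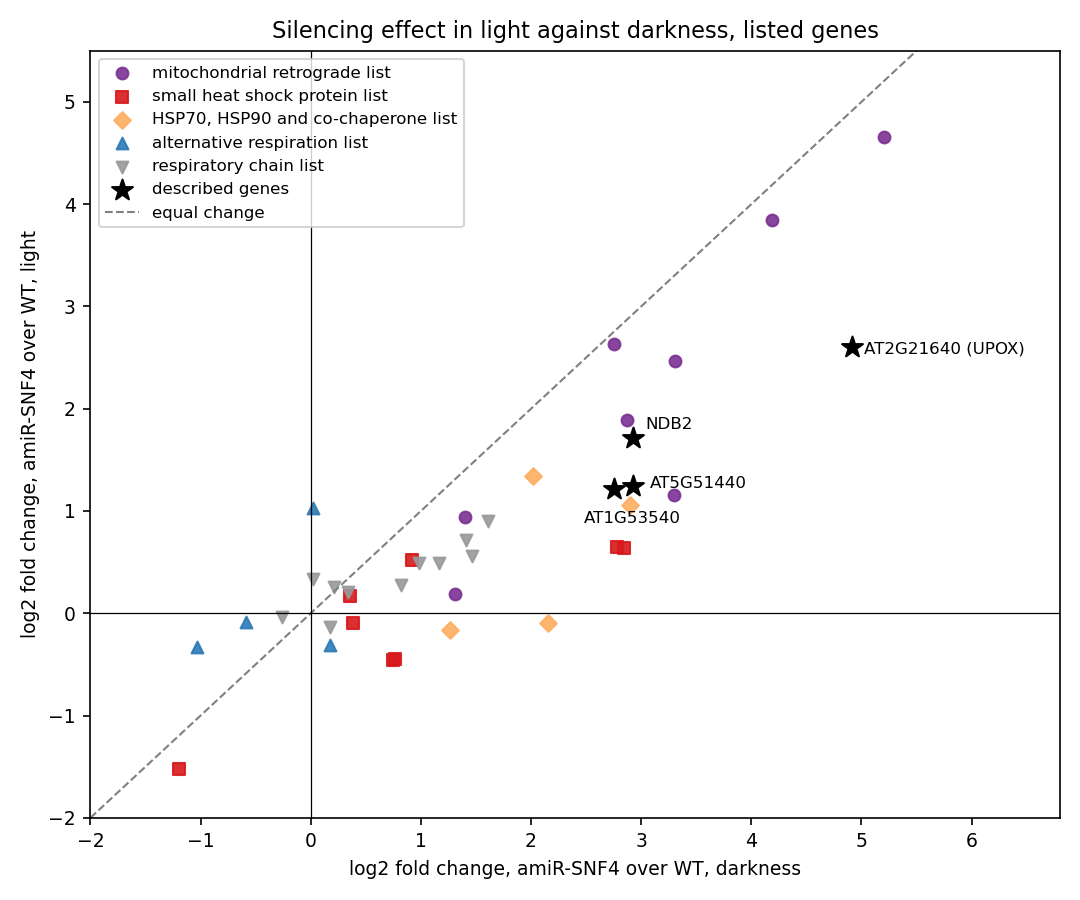
Log2 fold change of amiR-SNF4 over WT in light (vertical axis) against that in darkness (horizontal axis) for the measured genes of 5 lists, with the 4 members as stars. Points below the dashed line changed more in the upward direction in darkness than in light. AT2G04050, at 4.66 in light and 5.20 in darkness, lies near the line, and UPOX lies well below it.

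The listed genes that were not among the tested genes included regulators. All 7 NAC transcription factor loci, all 21 heat shock factor loci and 17 loci of mitochondrial protein import were not analysed here. Probe sets unnamed here or naming several genes were left out, so the array may still hold probes for these loci. Of 13 antioxidant and oxidative stress loci, STZ (ZAT10), a zinc finger factor of stress responses, was measured. It rose by 0.80 ± 0.23 in light (adjusted p = 0.0257, lost without normalization and with 1 added) and 3.10 ± 0.23 in darkness (adjusted p = 3.33e-07), with a difference, light minus darkness, of -2.30 ± 0.32 (adjusted p = 0.000842). None of 9 senescence and cell death loci was analysed here.

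The genes whose levels ran most like each member were found by Pearson correlation of log2 levels over the 12 arrays. These arrays form 4 groups, so the values mostly restate that other genes share the order of the groups. For UPOX they were AT1G55790 (r = 0.995), AT5G46080 (0.994) and AT3G51660 (0.992). NDB2 ran most like WRKY6 (0.995), a transcription factor, AT1G44130 (0.994) and AT1G60730 (0.993). For HSP23.5 they were AT1G56060 (0.989), AT3G50350 (0.987) and AT5G48175 (0.986), and for HSP17.6C AT1G19020 (0.988), AT2G43320 (0.986) and RD2 (0.983). WRKY6 was higher in amiR-SNF4 by 1.86 in light and 2.87 in darkness on the log2 scale, beside 1.72 and 2.92 for NDB2. No gene was among the 3 nearest of more than 1 member.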

How the data were processed

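RNA of 12 seedling samples was labelled with biotin and read on Affymetrix arrays. The authors' deposited values are intensities, 1 per probe set and array on a linear scale. Per the submitters' processing notes they came from GCOS, the scanner maker's software, with no version; their scaling is not given in the sources used here. Medians of single arrays lay between 39.4 and 62.5 in dark-grown and between 61.2 and 99.5 in light-grown seedlings, and arrays were therefore normalized here. Normalization thus also took out a shift between light and darkness, and the source of that shift was not tested. No detection calls entered the work, signal over background is unknown for single values, and the number of arrays limits the precision.

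Of 22810 probe sets, 64 controls were set aside. The other 22746 went through quantile normalization as log2 values; they were then returned to the linear scale and log2(intensity + 16) was used. Names came from the platform annotation, updated by gene identifier against a TAIR10.1 gene table. The brightest probe set was kept for the 146 genes with several, leaving 13356 genes; 503 probe sets naming several genes and 8730 unnamed here were left out. All 12 arrays were fitted together in limma 3.58.1 (R 4.3.3, lmFit and eBayes) with 5 contrasts, and calls needed an adjusted p (Benjamini-Hochberg) under 0.05. The fit was tested on simulated data. Arrays with the same replicate number did not deviate together: 4 of 18 pairs correlated above 0.1.

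The members, the 14 lists and the rule for naming genes were chosen with earlier results of these data known. The rule took the members, up to 4 called genes per list and comparison by smallest adjusted p (otherwise the gene with the smallest p), and the 3 genes most correlated with each member. Beyond it, AT2G32020, AT2G41380 and single values in a second comparison were chosen after their values were seen. Alternatives were no normalization, median scaling, a constant of 1 or 64, a filter on dim genes, a fit of the compared groups alone, trend and robust eBayes, a replicate block and leaving out each array. No sequences are printed, and coordinates were not used here.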

Additional observations from a re-analysis of the deposited data

Results flagged for a closer look

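The silencing effect differed between light and darkness, by the interaction term of the limma fit, for 28 genes among the members, the measured list genes and the genes most correlated with a member (log2 units, light minus darkness, adjusted p under 0.05 in each). They were 18 of the 48 measured list genes, members included, and 10 of the 12 most correlated genes. Of all tested genes, 3.92% were called lower in this difference and 4.07% higher. Members and lists were chosen with earlier results of these data known, so the counts are a description. Among the 4 members it was -2.31 for AT2G21640, -1.21 for NDB2, -1.68 for AT5G51440 and -1.54 for AT1G53540. Small heat shock protein genes with the same sign were AT2G29500 (-2.20), AT1G52560 (-2.13), AT1G54050 (-1.21) and AT2G19310 (-1.22). Mean intensities of AT1G52560 were 10.1 in amiR-SNF4 and 0.63 in WT in light, and 195 and 15.7 in darkness. Its light-grown arrays lay near the floor, where the added constant understates the change in light. By the ratio of these mean intensities, with nothing added, the rise was larger in light than in darkness. Both the size and the sign of its difference thus depend on that constant. Larger chaperones and their partners were Hop3 (-2.25), AT3G09440 (-1.84) and AT5G48570 (-1.43). Retrograde genes were GSTU25 (-2.15), AT5G43450 (-0.85), AT5G09570 (-1.12) and AT5G14730 (-0.98), and STZ was at -2.30. NDB4 had the opposite sign (1.01), as had PRK (1.56), a Calvin cycle gene among the green tissue markers. The calls of NDB4 and PRK were both lost without normalization and with 1 added in place of 16. Same-sign calls were lost as well. Without normalization, 3 in place of 7 retrograde genes and 2 in place of 6 small heat shock protein genes were called lower, members included. The calls of AT5G51440 and AT1G53540 were among those lost. With 1 added, 3 small heat shock protein genes were called lower, and the call of AT1G53540 was lost.

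Of the 12 genes most correlated with a member, 10 were called, which their choice by likeness to the members favours. They were AT1G55790 (-1.40), AT5G46080 (-0.89), AT3G51660 (-1.16), WRKY6 (-1.01), AT1G44130 (-1.85), AT1G60730 (-1.01), AT1G56060 (-1.22), AT3G50350 (-1.68), AT2G43320 (-0.70) and RD2 (-0.87).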

How the results depend on the processing

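The silencing effect on each of the 4 members stayed above 0 and was called in light and in darkness under each processing alternative run, dim-gene filter and replicate block included, and with each of the 12 arrays left out. So did the fall in light within amiR-SNF4, and that of AT1G53540 in WT. Without normalization between arrays, 1486 genes were called between genotypes in light (713 higher, 773 lower, against 1221 and 1329) and 2282 in darkness (1321 higher, 961 lower, against 1911 and 2202). The difference between conditions was then called for 278 genes (88 higher, 190 lower, against 543 and 523), and for 637 with a constant of 1. Among the members, the calls lost without normalization were those of AT5G51440 (-1.75, adjusted p = 0.0747, between 0.00128 and 0.0747 over all alternatives) and AT1G53540 (-1.46, 0.130; with a constant of 1, -0.68, 0.729). In WT, light minus darkness turned to 0.14 for AT2G21640, 0.074 for NDB2 and 0.15 for AT5G51440 without normalization. NDB2 in WT ran from -0.48 to -0.30 with 1 array left out, and was called without dark-grown amiR-SNF4 replicate 1 (-0.41, adjusted p = 0.0282). The cause of these changes was not tested. A fit with the replicate number as a block called 902 in place of 1066 genes for the difference between conditions and changed no call of the members; 3 of 12 arrays correlated best with their own number. Of 780 list counts recomputed, 731 stayed within 1.5 times. Counts with no called gene before and after were taken as unchanged, which favours this number. List counts were not recomputed with an array left out. Dim genes such as AT1G53540 and NDB4 in light are limited by signal near the floor.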
